A study of Mus musculus with 16 samples.

Results

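The genes described here encode the core binding factor and the partners it meets in leukaemia: Cbfb, Runx1, Runx2 and Runx3, the myosin gene Myh11, and the ETO family genes Cbfa2t2, Cbfa2t3 and Runx1t1. They were taken by gene symbol from the table of expected counts, and all 8 were found among its 55487 genes. The RNA came from mouse leukaemia cells that carry the human leukaemia fusion CBFB::MYH11 and green fluorescent protein (GFP), transplanted into congenic mice and sorted for GFP. The 5 groups were bone marrow doxycycline and bone marrow control, secondary disease, and spleen doxycycline and spleen control, with 4 libraries of secondary disease and 3 of each other group. Per the design text, cells in both arms carried a doxycycline-inducible shRNA against MYH11, whereas the control labels name cells expressing the fusion only. Doxycycline was drunk at 3 mg/ml with 5% sucrose, and controls drank 5% sucrose, for 7 days. Secondary disease was a separate cohort whose leukaemia was taken from spleens when doxycycline-treated mice showed signs of fatal disease. The sources used here do not give the age or strain of the mice or the number of animals behind a library. A doxycycline group lacking the shRNA is not among the samples, so drug and knockdown cannot be told apart.

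Core binding factor is a pair of proteins. A RUNX protein binds DNA at a short site with the core ACCACA, read TGTGGT on the other strand, and CBFβ, the product of Cbfb, does not touch DNA itself but strengthens that binding and protects RUNX from breakdown. RUNX1 is needed for blood stem cells to form and for megakaryocytes, RUNX2 for bone-forming cells and RUNX3 in T cells, natural killer cells and sensory neurons. An inversion of a human chromosome joins the RUNX-binding part of CBFB to the coiled tail of MYH11, the smooth muscle myosin heavy chain, and causes a form of acute myeloid leukaemia. ETO proteins are corepressors that bring histone deacetylases to DNA-bound factors. Runx1t1 (ETO) is the gene that joins RUNX1 in the other core binding factor leukaemia, Cbfa2t3 (ETO2 or MTG16) belongs to the TAL1 and GATA complex of red cell precursors, and Cbfa2t2 (MTGR1) completes the family.

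The 3 RUNX genes share a sequence at their distal start sites, shown because it is the longest run that their promoter windows have in common. RefSeq promoter windows on GRCm38.p6, 250 bases before to 50 after a start site, were found for 6 of the 8 genes, with none for Myh11 or Runx1t1. In 3 of the 9 windows a tandem pair of RUNX cores stood in the identical element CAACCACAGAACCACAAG, the longest run shared by the 3 genes. It is in capitals in each stretch, which has 6 further bases on either side:
Runx1, chr16:92826025-92826054, minus strand: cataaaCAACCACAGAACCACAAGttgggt
Runx2, chr17:44814583-44814612, minus strand: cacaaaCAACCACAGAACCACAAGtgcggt
Runx3, chr4:135120503-135120532, plus strand: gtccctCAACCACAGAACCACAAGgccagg

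The element begins at base 27 of the transcript of Runx1 and base 22 of that of Runx2, counted from 1 at the start site, while in Runx3 it lies ahead of the transcript, with its first base at −136. The 250 bases ahead of that Runx3 start show it in context (the element is in capitals):
Runx3, chr4:135120395-135120644, plus strand: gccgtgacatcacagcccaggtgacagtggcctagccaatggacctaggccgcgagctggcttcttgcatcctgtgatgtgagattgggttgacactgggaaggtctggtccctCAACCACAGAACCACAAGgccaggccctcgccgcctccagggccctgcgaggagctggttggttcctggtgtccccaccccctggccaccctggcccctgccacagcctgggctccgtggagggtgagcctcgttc

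Searched on both strands, the 18-base element was in 4 of 32851 windows (0.0122%): these 3 and that of Gm16225, a gene whose window overlaps the Runx3 window on the other strand. The 6-base core alone, which lies inside the element, was in 16.8% of all windows. The 6 remaining windows of Cbfb, Cbfa2t2, Cbfa2t3 and the second starts of Runx1, Runx3 and Cbfa2t3 did not hold these letters. A match is a description of sequence, and binding was not measured. In spleen with doxycycline the log2 fold change was 0.92 for Runx3, −0.71 for Runx1 and −0.73 for Runx2. By the edgeR test described below, adjusted p was 0.664, 0.348 and 0.579, and the Runx3 value rested on which library was counted. In bone marrow these 3 genes lay lower with doxycycline, as did Cbfb, whose window lacks the element. Whether the element has a part in these levels was not tested.

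Total expected counts lay between 12259707 and 39419370 per library. Levels are given in CPM, expected counts scaled to a common library total with TMM factors, as mean ± SD over libraries, and a gene passed the test at an adjusted p under 0.05 in edgeR's quasi-likelihood test over the 14435 genes with enough counts. Of the 8 members, 7 entered the test and Myh11 did not. The 16 libraries shared 1 estimate of spread, and 2 of them stood apart: spleen doxycycline replicate 2 and secondary disease replicate 4, the least deep. Results that rest on them are given with and without them.

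Per length, in TPM, the length-corrected share of transcripts, Runx1 and Cbfb were the most abundant members in all 5 groups. Runx1 averaged 44.1 ± 3.62 TPM in bone marrow doxycycline and 81.9 ± 14.4 TPM in bone marrow control, and Cbfb 40.8 ± 0.732 and 68.0 ± 4.94 TPM in these groups (SD, n = 3 each). In secondary disease Cbfb came first with 58.3 TPM, ahead of Runx1 with 48.8 TPM (range 28.1 to 57.9 TPM), with 26.3 to 72.5 TPM for Cbfb, ranges that overlap. Cbfa2t3 followed them in 4 groups, and in spleen control, where it had 26.4 ± 3.40 TPM, Runx1t1 stood above it at 29.7 ± 5.14 TPM (SD, n = 3). Runx2, Runx3 and Cbfa2t2 lay lower, between 2.91 and 17.4 TPM on average in every group, and Myh11 reached no more than 0.08 TPM in any library. When the group means of a gene were put in order of CPM, most neighbouring groups overlapped. The exceptions were Cbfa2t3, where bone marrow doxycycline lay above bone marrow control, Runx1, where secondary disease lay below spleen control, and Runx2, where bone marrow doxycycline lay below spleen control.

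**Figure D1:**
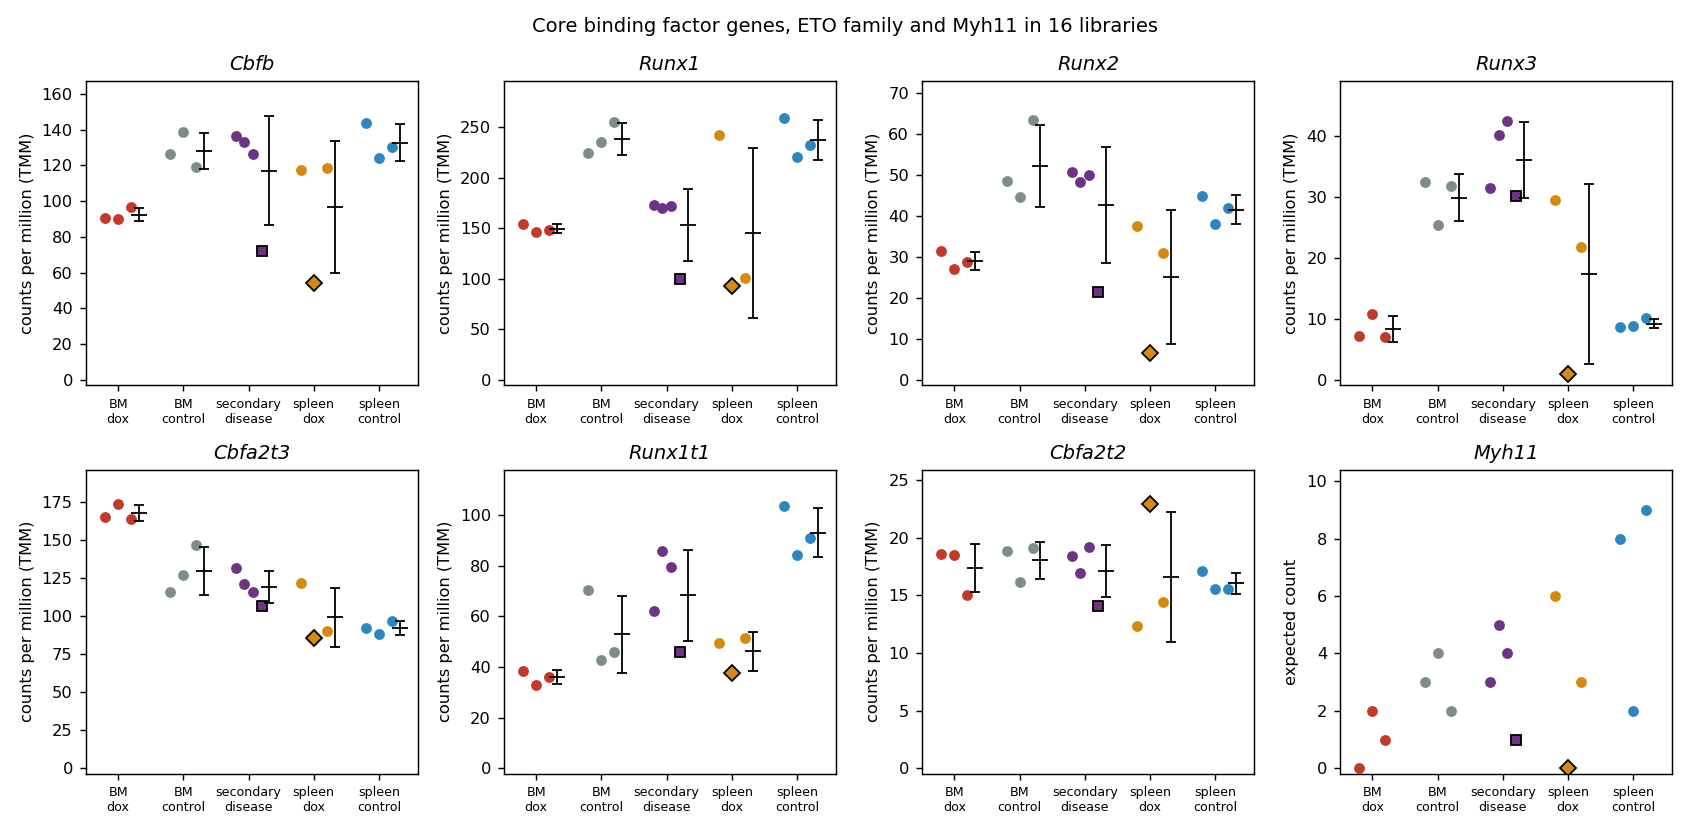
Level of each member in every library, in CPM, or in expected counts for Myh11. Points are libraries, bars are mean ± SD of a group, the diamond is spleen doxycycline replicate 2 and the square secondary disease replicate 4. Runx3 has 6.99 to 10.8 CPM in bone marrow doxycycline and 25.4 to 32.5 CPM in bone marrow control, with no overlap.

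After 7 days of doxycycline in bone marrow, Cbfb, Runx1, Runx2, Runx3 and Runx1t1 lay lower in each treated library than in each control library, and Cbfa2t3 lay higher in CPM. Cbfb (ENSMUSG00000031885, chr8:105170674-105217989, plus strand, GRCm38) had 90.4, 90.1 and 96.9 CPM in the doxycycline libraries and 127, 139 and 119 CPM in the control libraries. These counts take in the normal allele as well as any fusion reads that map to the Cbfb part. The log2 fold change of Cbfb was −0.47 ± 0.27 (SE, adjusted p = 0.340). Runx1 (ENSMUSG00000022952, chr16:92601466-92826149, minus strand) had 155, 146 and 148 CPM with doxycycline and 224, 235 and 255 CPM in controls. Its log2 fold change was −0.67 ± 0.30 (adjusted p = 0.208).

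Runx2 (ENSMUSG00000039153, chr17:44495987-44814797, minus strand) had 31.4, 27.0 and 28.8 CPM in bone marrow doxycycline and 48.4, 44.6 and 63.5 CPM in bone marrow control. Its log2 fold change was −0.84 ± 0.45 (adjusted p = 0.307). Runx3 (ENSMUSG00000070691, chr4:135120652-135177990, plus strand), the least abundant RUNX gene in these groups, showed the widest gap of the members. It had 7.17, 10.8 and 6.99 CPM with doxycycline and 32.5, 25.4 and 31.7 CPM in controls. The fitted level was 3.59-fold lower, a log2 fold change of −1.84 ± 0.69 (adjusted p = 0.126).

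Of the ETO family, Cbfa2t3 (ENSMUSG00000006362, chr8:122625141-122699109, minus strand) went the other way, with 165, 174 and 164 CPM in bone marrow doxycycline and 116, 127 and 147 CPM in bone marrow control (log2 fold change 0.37 ± 0.14, adjusted p = 0.142). In TPM, which was not scaled with TMM factors, its groups overlapped, at 33.6 to 38.7 with doxycycline and 31.8 to 47.3 in controls. The ratio of its counts to its TPM, relative to genes with 1 transcript, also differed. This ratio was 1.02 to 1.11 with doxycycline and 0.914 to 0.960 in controls. Its rise thus depended on the measure. Runx1t1 (ENSMUSG00000006586, chr4:13743436-13893649, plus strand) had 38.6, 33.0 and 36.2 CPM with doxycycline and 70.5, 42.8 and 45.8 CPM in controls. Its control replicate 1 stood well above the other controls, and the log2 fold change was −0.56 ± 0.23 (adjusted p = 0.173), or −0.29 without that library. Cbfa2t2 (ENSMUSG00000038533, chr2:154436481-154539356, plus strand) had 15.0 to 18.6 CPM with doxycycline and 16.2 to 19.1 CPM in controls, so its groups overlapped.

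In bone marrow, then, 6 of 7 members had groups that did not overlap in CPM, where 47.8% of all genes tested did so. Of the 6, 5 were lower and 1 higher, against 24.6% and 23.1% of genes. With the spread shared by all 16 libraries, edgeR called 0 of 7 (background 6.57% of genes), while 4 had an unadjusted p under 0.05, DESeq2 called 2 (Runx3 and Cbfa2t3, background 13.8%) and limma-voom 0 (6.51%). When the model held the 6 bone marrow libraries alone, 6 of 7 passed, all but Cbfa2t2, in the directions above, against 36.6% of genes. In that fit the adjusted p was 0.00247 for Cbfb, 0.000173 for Runx1, 0.000704 for Runx2, 1.92e-05 for Runx3, 0.0133 for Cbfa2t3 and 0.0318 for Runx1t1. The same 6 passed without the pair of libraries that stand apart, neither of them from bone marrow, against 29.5% of genes.

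**Figure D2:**
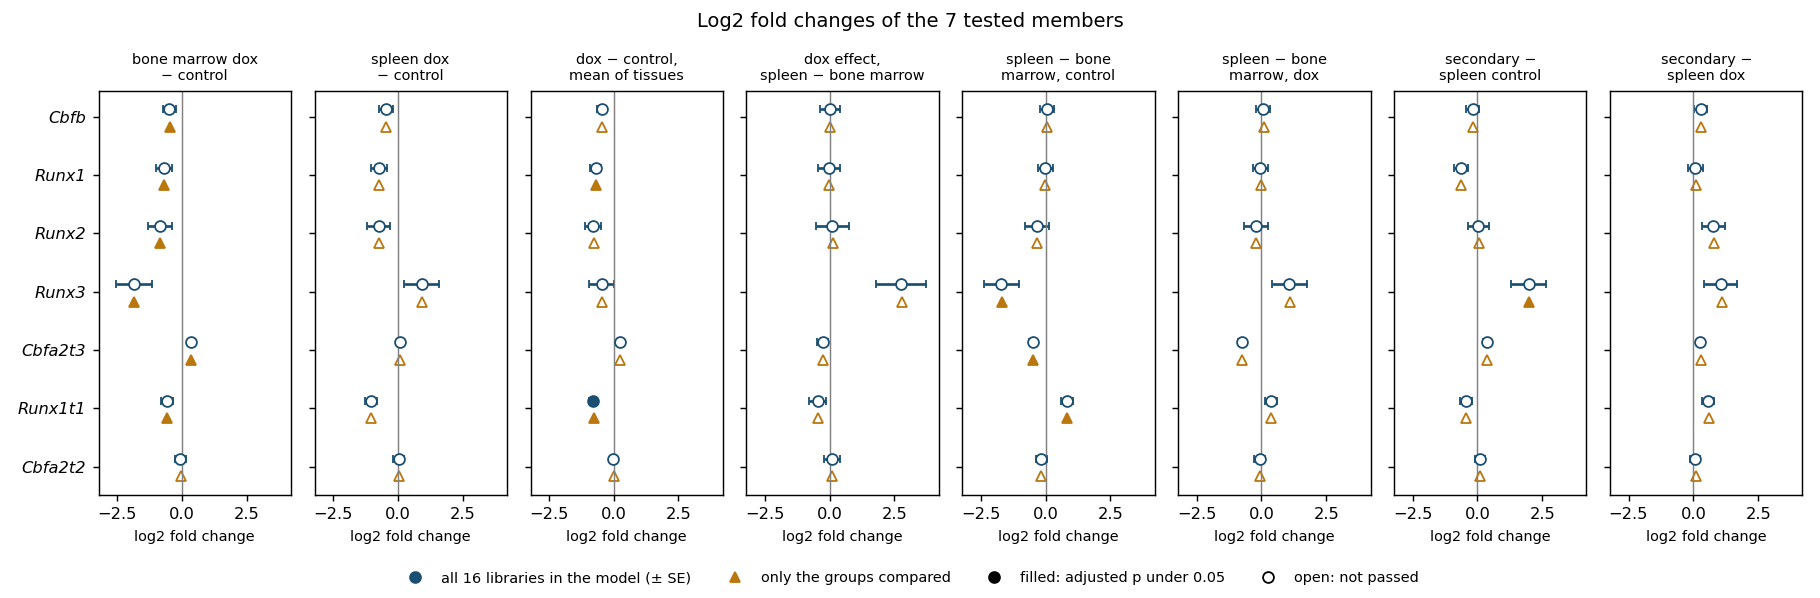
Log2 fold change of the 7 tested members in the 8 comparisons, the first-named group over the other. Circles are the model of all 16 libraries with ± SE, triangles the model of the groups compared only, and filled symbols passed at an adjusted p under 0.05. In bone marrow 6 triangles are filled and 0 circles, and Runx1t1 has the single filled circle.

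Markers of the red cell lineage moved with these groups. The summed level of the 15 erythroid markers in the table was 52898 to 65948 CPM in bone marrow doxycycline and 6072 to 7461 CPM in bone marrow control. The alpha-globin gene Hba-a2 led the list in the treated libraries with a mean of 20508 CPM, and the carbonic anhydrase gene Car2 led it in controls with 2591 CPM. No erythroid marker was at 0 in every library of a group. Summed markers of other cells were also apart. The summed 12 megakaryocyte markers were 276 to 342 CPM in bone marrow doxycycline and 626 to 737 CPM in bone marrow control, and the 12 mature neutrophil markers 329 to 672 and 898 to 1339 CPM. Itga2b led the megakaryocyte list in controls with a mean of 332 CPM and Tubb1 in the treated libraries with 130 CPM. Of its 7 tested markers 3 passed as lower and 0 as higher (6.57% of all genes passed). Averaged over both tissues 2 passed as lower and 2, Gp9 and Tubb1, as higher (10.1% of genes passed). The summed 12 macrophage and monocyte markers were 65.8 to 146 CPM with doxycycline and 170 to 184 CPM in controls, the 10 endothelial markers 157 to 176 and 347 to 433 CPM, and the 10 mast cell and basophil markers 2451 to 2658 and 2821 to 2893 CPM. Lyz2 led the macrophage list, with means of 52.8 and 127 CPM, while the median log2 fold change of the 12 was −0.00046 and 0 passed. Of 8 tested mast cell and basophil markers, Gata2 passed as higher and Fcer1a as lower (6.57% of all genes passed). The summed 10 osteoblast and stromal markers were higher with doxycycline, at 199 to 205 CPM against 108 to 126 CPM in controls. Cxcl12 carried nearly all of that sum, with means of 199 and 116 CPM. Of the 10, 4 had enough counts to be tested and 0 passed (6.57% of all genes passed). Of these lists, Emcn (endothelial) and Bglap (osteoblast) were at 0 in all bone marrow control libraries and the mast cell gene Tpsb2 in all 6 libraries. In bulk RNA, fewer cells of a type and less RNA per cell cannot be told apart, and the part of these shifts in the levels of Cbfb and the RUNX genes was not tested.

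**Figure D3:**
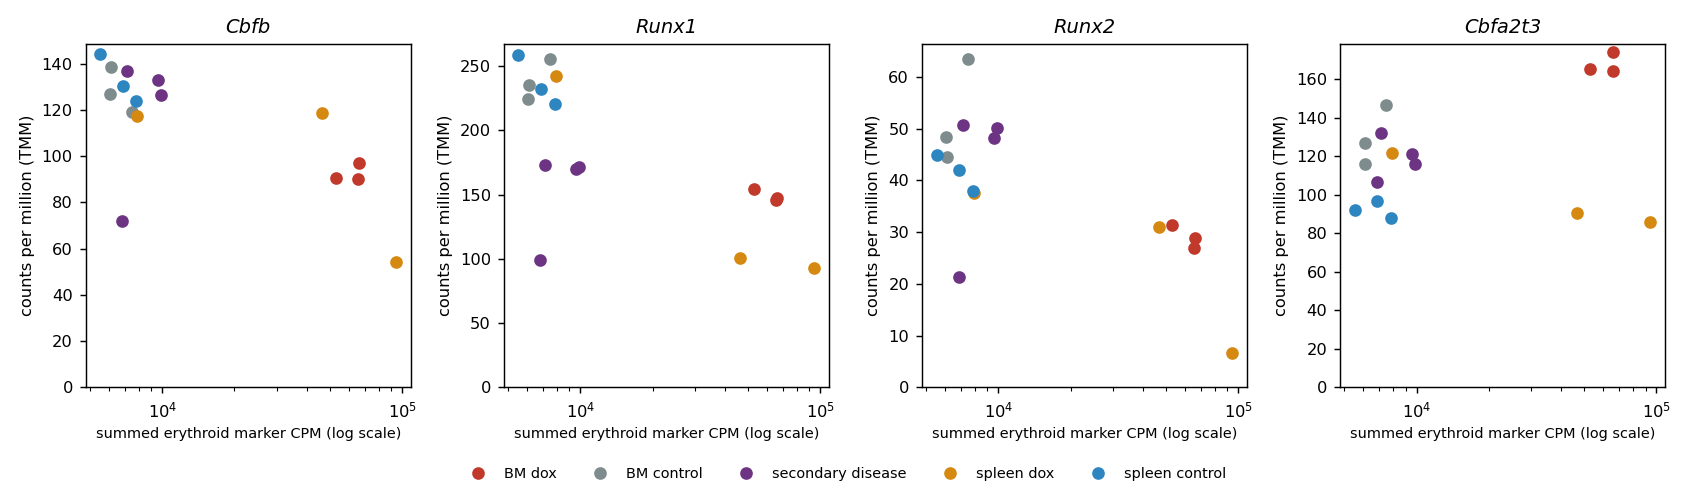
Level of Cbfb, Runx1, Runx2 and Cbfa2t3 in CPM against the summed CPM of 15 erythroid markers on a log axis, 1 point per library, coloured by group. The bone marrow doxycycline libraries and spleen doxycycline replicates 2 and 3 lie to the right, from 46481 to 94393 CPM of markers, and the other libraries lie at 9846 CPM or less.

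In spleen the 3 doxycycline libraries did not behave alike, and the 4 core binding factor genes differed among themselves in how they split. Cbfb had 117, 54.2 and 119 CPM in spleen doxycycline replicates 1, 2 and 3 and 144, 124 and 131 CPM in spleen control. Each treated library lay below each control, 2 of them by little (log2 fold change −0.46 ± 0.27, adjusted p = 0.547). Runx1 had 243, 92.5 and 101 CPM with doxycycline and 259, 221 and 232 CPM in controls. Replicate 1 thus lay within the control range and the other treated libraries far below it (−0.71 ± 0.30, adjusted p = 0.348). Without replicate 1, Runx1 had a log2 fold change of −1.30 and passed (adjusted p = 0.00173, 9.13% of genes passed).

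Runx2 had 37.5, 6.58 and 31.0 CPM in spleen doxycycline and 44.8, 37.9 and 41.9 CPM in spleen control, with replicate 2 far below the rest (−0.73 ± 0.45, adjusted p = 0.579). Runx3 had 29.4, 0.917 and 21.7 CPM with doxycycline and 8.66, 8.76 and 10.1 CPM in controls. Replicates 1 and 3 lay above every control and replicate 2 below, at 23 expected counts. The log2 fold change of Runx3 was 0.92 ± 0.67 (adjusted p = 0.664) with all libraries and 1.48 without replicate 2, where it passed (adjusted p = 0.0240, 0.248% of genes passed). With single libraries left out it ran from 0.30 to 1.48, and limma-voom gave −0.0765, so its size in spleen rests on which library is counted.

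The Runx1t1 values of the 3 spleen doxycycline libraries lay close together. It had 49.4, 37.5 and 51.6 CPM in spleen doxycycline and 104, 84.4 and 91.2 CPM in spleen control, so that even the highest treated library lay well below the lowest control. The log2 fold change was −1.01 ± 0.24 (adjusted p = 0.0628), and it was between −1.10 and −0.88 when single libraries were left out. Cbfa2t3 had 122, 85.7 and 90.2 CPM with doxycycline and 92.0, 88.1 and 96.8 CPM in controls, and its groups overlapped, as did those of Cbfa2t2. In all, 3 of 7 members (Cbfb, Runx2 and Runx1t1) had groups apart in spleen, Runx2 by a narrow gap, against 20.1% of all genes. Each was lower with doxycycline, as were 10.7% of genes. EdgeR called 0 of 7 (background 0.741%), 2 had an unadjusted p under 0.05, DESeq2 called 1 (Runx1t1, background 4.95%) and limma-voom 0 (0.693%).

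The summed erythroid markers were 7886, 94393 and 46481 CPM in spleen doxycycline replicates 1, 2 and 3 and 5519 to 7806 CPM in spleen control. Replicate 1, whose marker sum lay next to the controls, had the control-like Runx1 level, and replicate 2, with the largest sum, had the lowest Cbfb, Runx1, Runx2 and Runx3 of all 16 libraries. Runx1t1 had 49.4 CPM in replicate 1, below all spleen controls, at a near-control marker sum. Cbfb and Runx2 also lay below all controls there, Runx2 by little, at 37.5 CPM against 37.9 CPM in the lowest control. The summed 8 plasmacytoid dendritic cell markers were lower in spleen doxycycline, at 9.56 to 39.3 CPM against 60.3 to 72.1 CPM in spleen control, with Klk1 at 0 in both groups. Bst2 carried most of that sum, with means of 25.2 and 66.1 CPM in these groups. The 6 tested markers of the list had a median log2 fold change of 0.28, the other way. The part of these shifts in the member levels was not tested.

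Averaged over both tissues, Runx1t1 fell with doxycycline. It had 33.0 to 38.6 CPM in bone marrow doxycycline and 42.8 to 70.5 CPM in bone marrow control, and 37.5 to 51.6 CPM in spleen doxycycline and 84.4 to 104 CPM in spleen control, and the averaged log2 fold change was −0.79 ± 0.17 (adjusted p = 0.00949). Of 7 members this was the 1 that passed, where 10.1% of all genes did and 3.73% did so as lower. In 3 members (Cbfb, Runx2 and Runx1t1) the groups did not overlap within either tissue, each lower with doxycycline, as 9.29% of genes did in either direction. The gap of Runx2 in spleen was narrow (37.5 and 37.9 CPM). Runx1t1 passed in every alternative setting run and with each library left out in turn. Runx1 had −0.69 ± 0.21 (adjusted p = 0.0556), just outside the threshold, and it passed with DESeq2 (adjusted p = 0.0151) and with limma-voom (adjusted p = 0.0296). These tools called Runx1 and Runx1t1, where DESeq2 called 16.7% of genes and limma-voom 12.3%. Cbfb (−0.46 ± 0.19), Runx2 (−0.79 ± 0.32) and Cbfa2t3 (0.24 ± 0.10) did not pass, with adjusted p = 0.142, 0.142 and 0.167, nor did Runx3 (−0.46 ± 0.47, adjusted p = 0.623), whose fold changes had opposite signs in the tissues. Without the pair of libraries that stand apart, Cbfb, Runx1, Runx2, Cbfa2t3 and Runx1t1 passed, against 23.8% of all genes.

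The difference in the doxycycline effect between tissues, spleen minus bone marrow, was widest for Runx3, at 2.77 ± 0.96 log2 units (adjusted p = 0.425). Runx3 had a log2 fold change of 0.92 in spleen and −1.84 in bone marrow. Cbfb, Runx1 and Runx2 differed between the tissues by less than 0.2 in size, Runx1t1 by −0.45 ± 0.33 (adjusted p = 0.845) and Cbfa2t3 by −0.27 ± 0.20 (adjusted p = 0.862). EdgeR called 0 of 7 (background 0.0485%), 1 had an unadjusted p under 0.05 and DESeq2 and limma-voom called 0 (1.73% and 0.236% of genes). Without spleen doxycycline replicate 2 the Runx3 difference was 3.33 and passed (adjusted p = 0.000107), against 4.32% of genes.

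Among the control groups of the tissues, Runx3, Runx1t1 and Cbfa2t3 were the members with no overlap. Runx3 was lower in spleen control, with 8.66 to 10.1 CPM, than in bone marrow control, with 25.4 to 32.5 CPM (log2 fold change −1.70 ± 0.69, adjusted p = 0.562). Runx1t1 averaged 93.1 ± 9.80 CPM in spleen control and 53.1 ± 15.2 CPM in bone marrow control (0.81 ± 0.23, adjusted p = 0.232), and Cbfa2t3 92.3 ± 4.36 and 130 ± 15.6 CPM in these groups (−0.49 ± 0.14, adjusted p = 0.237; SD, n = 3 each). For these 3 genes the tissues did not overlap, as for 32.8% of all genes. EdgeR called 0 of 7 (background 0.187%), 3 had an unadjusted p under 0.05, DESeq2 called Runx1t1 and Cbfa2t3 (2.11% of genes), and limma-voom called 0 (1.18%). With only the 6 control libraries in the model, the 3 genes passed (adjusted p = 1.19e-05 for Runx3, 0.0165 for Runx1t1 and 0.00684 for Cbfa2t3), against 14.7% of genes. Cbfb and Runx1 had nearly the same mean in both control groups, 133 ± 10.2 CPM in spleen control and 128 ± 9.92 CPM in bone marrow control for Cbfb, and 237 ± 19.6 CPM in spleen control and 238 ± 15.6 CPM in bone marrow control for Runx1. Runx2 had −0.33 ± 0.45 (adjusted p = 1).

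Cell type markers also set the control groups apart. Mature neutrophil markers summed to 55.1 to 173 CPM in spleen control and 898 to 1339 CPM in bone marrow control, and macrophage and monocyte markers to 24.1 to 56.7 CPM in spleen control and 170 to 184 CPM in bone marrow control. Summed plasmacytoid dendritic cell markers were higher in spleen control, at 60.3 to 72.1 CPM against 20.1 to 26.1 CPM in bone marrow control. Bst2 carried most of that sum, with means of 66.1 and 21.3 CPM in these groups. The 6 tested markers of the plasmacytoid list had a median log2 fold change of −1.79, the other way. Summed mast cell and basophil markers were higher in spleen control, at 3323 to 3461 CPM against 2821 to 2893 CPM. Klk1 (plasmacytoid) and Tpsb2 (mast cell) were at 0 in all 6 libraries and Mcpt8 (basophil) in the 3 of spleen. Their part in the levels of Runx3, Runx1t1 and Cbfa2t3 was not tested.

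Under doxycycline, Cbfa2t3 was the member that set the tissues apart: it had 85.7 to 122 CPM in spleen doxycycline and 164 to 174 CPM in bone marrow doxycycline, with no overlap (15.5% of all genes had none). Its log2 fold change was −0.76 ± 0.14 (adjusted p = 0.0673), just short of the threshold. EdgeR called 0 of 7 (background 0.0485%), 1 had an unadjusted p under 0.05, and DESeq2 and limma-voom called Cbfa2t3 (3.03% and 0.443% of genes). Runx3 had 1.06 ± 0.68 (adjusted p = 0.622) with all libraries and 1.62 without spleen doxycycline replicate 2, where it passed (adjusted p = 0.000963, 7.18% of genes passed). Runx2 had −0.21 ± 0.45 (adjusted p = 0.926) and Runx1t1 0.36 ± 0.23 (adjusted p = 0.632).

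In secondary disease, leukaemia that grew to fatal disease under doxycycline, Runx3 stood above the spleen controls and Runx1 below them. Runx3 had 31.4, 40.1, 42.4 and 30.1 CPM in secondary disease and 8.66, 8.76 and 10.1 CPM in spleen control. All 4 libraries, the one that stands apart included, lay above every spleen control. This comparison shares its controls with that of spleen doxycycline. The log2 fold change against spleen control was 1.97 ± 0.67 (adjusted p = 0.163). It passed with DESeq2 (adjusted p = 0.0312), and with only these 7 libraries in the model (adjusted p = 0.00187, 3.07% of genes).

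Runx1 had 173, 170, 171 and 99.4 CPM in secondary disease and 259, 221 and 232 CPM in spleen control (−0.63 ± 0.28, adjusted p = 0.301). Replicates 1 to 3 lay close together and replicate 4 far below them. Cbfb had 137, 133, 127 and 72.2 CPM in secondary disease and 124 to 144 CPM in spleen control, so that replicates 1 to 3 lay in the control range. Runx2 had 50.7, 48.2, 50.1 and 21.3 CPM in secondary disease and 37.9 to 44.8 CPM in spleen control, with replicates 1 to 3 above the controls and replicate 4 below them. Cbfa2t3 had 107 to 132 CPM in secondary disease and 88.1 to 96.8 CPM in spleen control (0.37 ± 0.14, adjusted p = 0.201). In TPM its ranges overlapped, at 18.7 to 37.9 and 22.4 to 28.5 in these groups. Runx1t1 had 62.2, 86.0, 79.5 and 45.9 CPM in secondary disease and 84.4 to 104 CPM in spleen control, with 1 library in the control range (−0.44 ± 0.22, adjusted p = 0.356).

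Against spleen control, 3 of 7 members (Runx1, Runx3 and Cbfa2t3) had groups apart, as did 21.3% of all genes. EdgeR called 0 of 7 (background 2.03%), 3 had an unadjusted p under 0.05, DESeq2 called 1 (Runx3, background 5.24%) and limma-voom 0 (2.44%). The erythroid marker sum was 6817 to 9846 CPM in secondary disease and 5519 to 7806 CPM in spleen control, ranges that overlap. Osteoblast and stromal markers, at 113 to 185 and 79.0 to 84.5 CPM, and endothelial markers, at 306 to 331 and 336 to 367 CPM, did not overlap. The sums of the other marker lists did. Of 6 tested plasmacytoid markers Bst2 passed as lower, with means of 8.09 and 66.1 CPM (adjusted p = 0.00376), and 5 did not pass. The part of these markers in the member levels was not tested.

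Against spleen doxycycline, with which the previous comparison shares the secondary disease libraries, Runx3 had 30.1 to 42.4 CPM in secondary disease and 0.917 to 29.4 CPM in spleen doxycycline. The ranges were apart by less than 1 CPM (7.24% of all genes had none in common), and the log2 fold change was 1.05 ± 0.64 (adjusted p = 0.434). Runx1t1 had 0.57 ± 0.22 (adjusted p = 0.201) and passed without secondary disease replicate 4 (adjusted p = 0.0489, 4.98% of genes passed). Runx2 had 0.77 ± 0.43 (adjusted p = 0.384) and Cbfb 0.28 ± 0.25 (adjusted p = 0.628), and Cbfb had −0.01 without spleen doxycycline replicate 2. Cbfa2t3 had 0.26 ± 0.13 (adjusted p = 0.337). EdgeR called 0 of 7 (background 0.928%), 1 had an unadjusted p under 0.05, and DESeq2 and limma-voom called 0 (6% and 0.457% of genes).

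Myh11 (ENSMUSG00000018830, chr16:14194535-14291372, minus strand), the mouse gene of the fusion partner, had few or no counts in every library. It had 0, 2 and 1 expected counts in bone marrow doxycycline and 3, 4 and 2 in bone marrow control. It had 3, 5, 4 and 1 in secondary disease, 6, 0 and 3 in spleen doxycycline and 8, 2 and 9 in spleen control. A count of 0 allows up to 3 counts in a library by counting error alone, so values up to 3 cannot be told from it. The highest counts, 8 and 9, were in spleen control. In a fit with no filter on low counts Myh11 did not pass in any of the 8 comparisons (lowest adjusted p = 0.595). The sources used here do not say if MYH11 reads of the fusion could land on the mouse gene, so these counts check neither the fusion nor its knockdown. The summed level of 11 smooth muscle markers, 4 of which had enough counts to be tested, was 72.3 to 94.5 CPM in bone marrow doxycycline and 180 to 209 CPM in bone marrow control. The kinase gene Mylk carried most of it, with means of 64.4 and 161 CPM in these groups, and of the tested ones Smtn, the gene of the smooth muscle protein smoothelin, fell to 12.5 ± 0.845 CPM in bone marrow doxycycline against 27.9 ± 4.56 CPM in bone marrow control (SD, n = 3 each; −1.16 ± 0.30, adjusted p = 0.0359). With all libraries 1 of the 4 tested passed as lower (6.57% of all genes passed). Over the settings and single libraries left out, 0 to 2 of these markers passed as lower in bone marrow, where 23 to 5991 of all genes passed. Actg2, a smooth muscle actin gene, was at 0 in all libraries of both groups, Myocd, the master regulator of smooth muscle, in the 3 treated libraries, and Lmod1, a smooth muscle actin nucleator, in the 3 controls.

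Shares within a family, taken per length in TPM, do not depend on the scaling between libraries, but they rest on the transcript lengths estimated in each library. The ratio of counts to TPM, relative to genes with 1 transcript, varied most for 2 members. It ran from 0.720 to 1.31 for Runx2 and from 0.713 to 1.30 for Runx1t1 over the 16 libraries. Runx3 made up 4.57 to 6.51% of the summed RUNX TPM in bone marrow doxycycline and 10.8 to 11.8% in bone marrow control. In secondary disease it made up 13.6 to 20.6% and in spleen control 3.40 to 3.96%. The spleen doxycycline libraries gave 10.9, 0.999 and 17.9%, on both sides of the controls. The summed RUNX level itself was 49.7 to 62.4 TPM in bone marrow doxycycline and 97.0 to 136 TPM in bone marrow control. Cbfb TPM per RUNX TPM was 0.663 to 0.824 in bone marrow doxycycline and 0.537 to 0.695 in bone marrow control, ranges that overlap, and it reached 1.34 in spleen doxycycline replicate 3.

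Cbfa2t3 made up 70.2 to 74.2% of the summed ETO family TPM in bone marrow doxycycline and 59.0 to 67.0% in bone marrow control. Its share was 48.5 to 63.3% in secondary disease, 52.0 to 69.1% in spleen doxycycline and 42.9 to 44.0% in spleen control. Runx1t1 made up most of the rest, with 46.9 to 51.4% in spleen control, the group where it held the largest share. These shares are descriptions without a test.

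**Figure D4:**
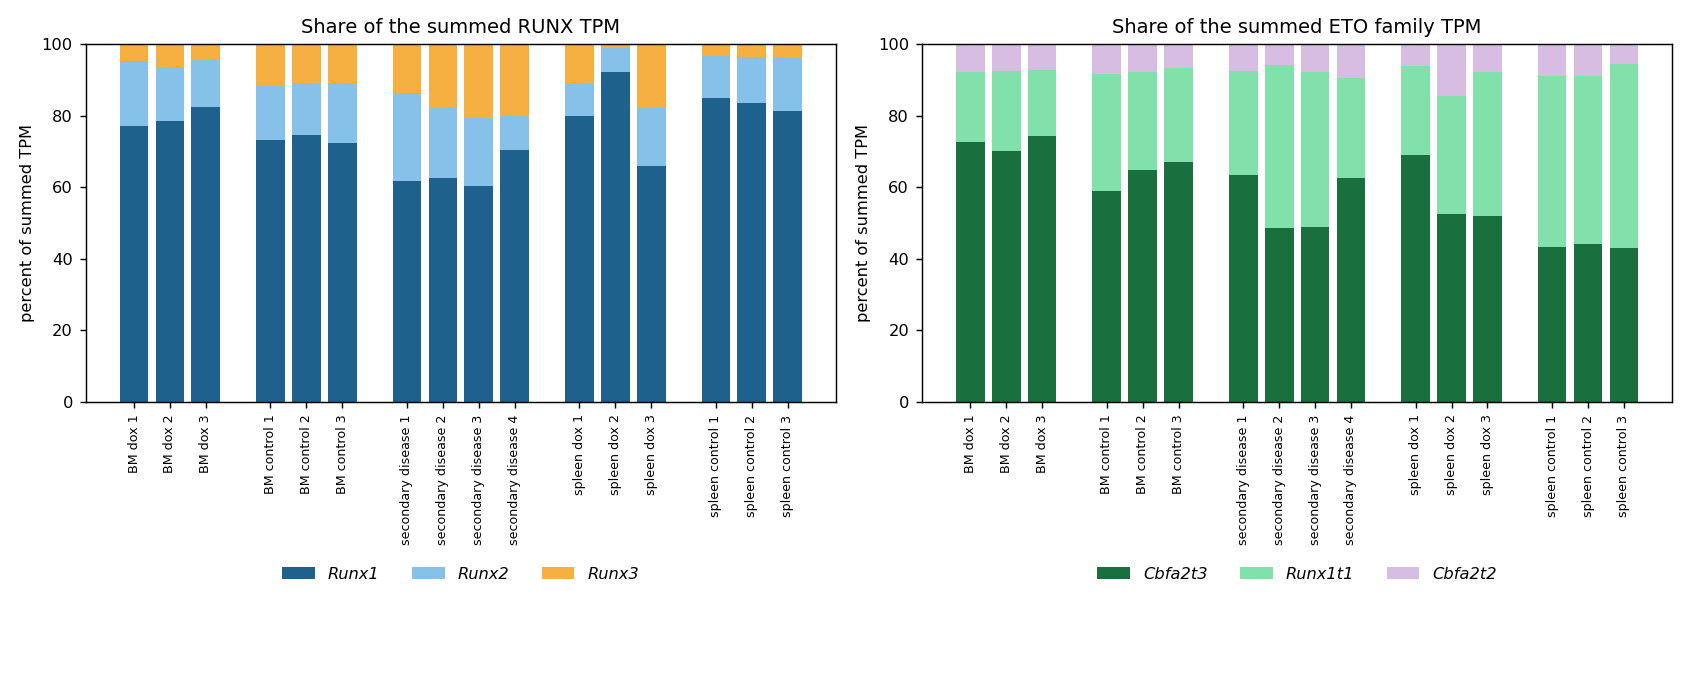
Share of each gene in the summed TPM of the 3 RUNX genes (left) and the 3 ETO family genes (right), in percent, 1 bar per library. Runx3 takes 13.6 to 20.6% of RUNX TPM in secondary disease and 3.40 to 3.96% in spleen control, and Cbfa2t3 takes 70.2 to 74.2% of ETO family TPM in bone marrow doxycycline and 42.9 to 44.0% in spleen control.

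Other genes of the pathway were read from lists of known partners and targets. Of 28 tested cofactors of RUNX and CBFβ, such as histone deacetylases and ETS factors, Cdk6, a cell cycle kinase that binds RUNX1, fell in bone marrow with doxycycline, to 132 ± 8.75 CPM against 336 ± 15.8 CPM in controls (SD, n = 3 each; −1.35 ± 0.24, adjusted p = 0.00799), and 27 did not pass, where 6.57% of all genes passed. With the 6 bone marrow libraries fitted alone 2 cofactors passed as higher and 8 as lower (36.6% of genes passed), and without the pair of libraries that stand apart 2 and 7 (29.5%). The median over the list was −0.13 on the log2 scale, against −0.02 over all genes tested. Averaged over the tissues, Cdk6, the ETS factor gene Ets1 (−0.95 ± 0.23) and its relative Fli1 (−1.56 ± 0.42, adjusted p = 0.0293) fell and 25 did not pass (10.1% of genes passed). With single libraries left out, Cdk6 passed in 13 of 13 fits, Ets1 in 7 and Fli1 in 3. Fli1 spread widely with doxycycline, at 44.4 ± 32.2 CPM against 127 ± 9.52 CPM in controls (SD over both tissues). In spleen doxycycline against control 0 of 28 passed with all libraries (0.741% of genes), and 0 passed as higher and 6 as lower without the pair that stand apart (7.16%). In secondary disease against spleen doxycycline 0 of 28 passed with all libraries (0.928%), and 9 as higher and 1 as lower without that pair (7.93%).

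Of the 18 partners of ETO complexes, all tested, 4 rose in bone marrow with doxycycline, 0 fell and 14 did not pass (median 0.13), where 6.57% of all genes passed. The balance depended on the model: with the 6 bone marrow libraries fitted alone 6 passed as higher and 4 as lower (36.6% of genes passed), and without the pair of libraries that stand apart 6 and 2 (29.5%). Gata2, a factor of stem and mast cells, averaged 679 ± 144 CPM with doxycycline and 264 ± 28.9 CPM in controls (1.36 ± 0.32, adjusted p = 0.0249). Gata1, its successor in red cells, averaged 451 ± 42.1 and 296 ± 29.5 CPM in these groups (0.61 ± 0.14, adjusted p = 0.0246). Lyl1, a relative of TAL1, had 0.89 ± 0.17 (adjusted p = 0.0123), and Ssbp3, which binds the adaptor LDB1, 0.90 ± 0.20 (adjusted p = 0.0194). Gfi1b, a repressor gene of red cells and megakaryocytes, rose in spleen doxycycline, to 491 ± 4.38 CPM against 308 ± 6.92 CPM in spleen control (0.67 ± 0.14, adjusted p = 0.0451). With only the spleen doxycycline and control libraries in the model it did not pass (adjusted p = 0.358), where 0 genes passed as higher and 1 as lower. Gfi1b also rose in secondary disease, at 494 ± 39.1 CPM, against the same controls (0.68 ± 0.13, adjusted p = 0.0151). In each of these 2 comparisons 17 partners did not pass, where 0.741% of genes passed in spleen doxycycline and 2.03% in secondary disease.

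Of 30 genes with known RUNX sites in blood cells, 23 could be tested. In bone marrow doxycycline against control 3 rose and 20 did not pass, where 6.57% of all genes passed. The risen genes were Nfe2 (1.14 ± 0.19, adjusted p = 0.00667), Klf1 (1.23 ± 0.28, adjusted p = 0.0234) and the cyclin gene Ccnd3 (1.78 ± 0.46, adjusted p = 0.0359). The list's median was −0.53, below zero though the called genes rose, and that of all genes −0.02. With the 6 bone marrow libraries fitted alone 4 passed as higher and 7 as lower (36.6% of genes passed), and without the pair of libraries that stand apart 4 and 3 (29.5%). In secondary disease against spleen control 3 of 23 fell and 20 did not pass, where 2.03% of genes passed, and 0 passed as higher and 7 as lower without the pair that stand apart (8.13%). Cebpe, a late granulocyte factor, had 0.0805 ± 0.0748 CPM in secondary disease and 7.10 ± 0.592 CPM in spleen control (adjusted p = 0.0140), the integrin gene Itgal had −4.60 ± 0.87 (adjusted p = 0.0155), and the cell cycle inhibitor gene Cdkn1a −1.75 ± 0.34 (adjusted p = 0.0176). Against spleen doxycycline Cebpe, Ccnd3 and Klf1 fell in secondary disease, at adjusted p between 0.0265 and 0.0490 (0.928% of genes passed). The spleen doxycycline libraries spread widely, with 7.27 ± 11.2 CPM of Cebpe and 464 ± 419 CPM of Ccnd3. With only these groups in the model 0 genes of the list passed in either direction, and Ccnd3 and Klf1 had adjusted p = 0.887. Between the tissue controls Prtn3, a neutrophil protease gene, was the 1 called gene, lower in spleen (−3.80 ± 0.67, adjusted p = 0.0393; 0.187% of genes passed). With the 6 control libraries fitted alone 5 passed as higher and 6 as lower (14.7%). With single libraries left out, the calls in secondary disease held in 2 to 5 of 7 fits against spleen control and in 3 or 4 of 7 against spleen doxycycline, and Gfi1b in spleen doxycycline in 2 of 7.

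Of 16 genes reported as altered in leukaemia with the fusion, 11 were tested. The growth factor gene Clec11a fell in bone marrow with doxycycline, to 0.287 ± 0.0642 CPM against 61.5 ± 15.6 CPM in controls (−7.71 ± 1.68, adjusted p = 0.0188), Gata2 rose and 9 did not pass (6.57% of all genes passed), and 4 passed as higher and 3 as lower with the 6 bone marrow libraries fitted alone (36.6%). In the average over the tissues the receptor gene Kit rose (1.01 ± 0.24, adjusted p = 0.0158), Clec11a fell and 9 did not pass (10.1%). Kit passed in 11 of 13 fits with single libraries left out and Clec11a in 10. Of 18 myosin genes 7 were tested, and Myh7b, a striated muscle myosin heavy chain gene, rose in bone marrow to 7.36 ± 3.68 CPM against 0.285 ± 0.288 CPM in controls (4.68 ± 1.02, adjusted p = 0.0191) while 6 did not pass (6.57% of all genes passed). In the fit of the bone marrow libraries alone 1 myosin gene passed as higher and 3 as lower (36.6% of genes passed). The bone marrow calls made with all libraries held in 8 or 9 of 9 other settings. With single libraries left out they held in 1 to 6 of 7 fits, and each of the 6 bone marrow libraries ended at least 1 call.

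The genes whose log2 CPM went most like each member over the 16 libraries were read from 8530 genes whose log2 CPM averaged 3 or more, and these correlations describe libraries that share tissue, treatment and depth. Cbfb went most like Itpripl2 (Pearson r = 0.985), Plod2 (0.970) and Cytip (0.965). Runx1 went most like Pxn (0.957), Elovl2 (0.955) and Tap1 (0.942). Runx2 went most like Zfp521 (0.980), Foxa1 (0.974) and Arhgap39 (0.973), and Runx3 like Hsd3b7 (0.968), Sidt1 (0.964) and Cmtm7 (0.956). For the ETO family, Cbfa2t3 went most like Mvb12b (0.949), Trpc4ap (0.911) and Ptpre (0.853), Runx1t1 like St13 (0.912), D16Ertd472e (0.908) and Pomt2 (0.892), while Cit (0.860) and Scaf11 (0.849) were among those most like Cbfa2t2.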

How the data were processed

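RNA of GFP-sorted cells was sequenced after oligo-dT selection, per the labels' protocols. The authors deposited expected counts per gene (RSEM estimates that need not be whole) and a TPM file per library. Trim Galore, STAR, RSEM, FastQC and MultiQC and the build GRCm38 stand in the submitters' processing notes, with no versions. No source used here gives strand: Gm26626, Runx2os1 and Gm10612 share exons with Runx1, Runx2 and Cbfa2t3 on the other strand, and their reads cannot be told apart.

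Expected counts were rounded and tested with edgeR 4.0.16 (R 4.3.3): filterByExpr, TMM, robust quasi-likelihood fit, 1 mean per group, two-sided p adjusted by Benjamini-Hochberg over 14435 genes. SE was taken as the size of the log2 fold change divided by √F. Steps were checked on simulated counts. Alternatives used DESeq2 1.42.0 and limma 3.58.1. No replicate pair was within sampling noise (lowest chi-square per degree of freedom 7.87), and replicates are not said to be separate animals, so p-values measure the spread between samples. TPM served for levels between genes and for shares. Each TPM file went best with its own count column, by deviations from the mean over libraries. Of the gene identifiers, 55394 were in GENCODE M21, the source of coordinates. Members and lists were chosen with earlier results of these data known. Besides the members, the text names up to 4 called genes per list and comparison, by smallest p, the most abundant markers, and the 3 genes most like each member, 1 of which is not reported here. Myocd was named after its values were seen.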

Additional observations from a re-analysis of the deposited data

Results flagged for a closer look

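In secondary disease, the 1 group of 4 libraries, replicate 4 lay far from the others for 3 of the 7 members examined. It had 72.2 CPM of Cbfb, where replicates 1 to 3 had 127 to 137 CPM, and 99.4 CPM of Runx1, where they had 170 to 173 CPM. It had 21.3 CPM of Runx2, where they had 48.2 to 50.7 CPM. For these genes the gap to the nearest library was 0.844, 0.958 and 0.915 of the group's whole range, above the critical value of 0.829 for 4 libraries. Chance alone flags about 1 group in 20, and the 3 genes are read from the same library, so they are not separate events. Replicate 4 was the least deep library (12259707 expected counts), and its chi-square per degree of freedom against replicates 1 to 3 was 227 to 251, where these differed among themselves by 10.4 to 32.3. Replicate 4 also stood apart in cell type markers, with 109 CPM of summed plasmacytoid dendritic cell markers, where replicates 1 to 3 had 7.03 to 9.50 CPM. A single gene, Pacsin1 with 92.8 CPM, made up most of that sum, and 4 of the 8 markers were at 0 in replicate 4. It had 166 CPM of macrophage and monocyte markers, where they had 25.7 to 59.9 CPM, and 1913 CPM of mast cell and basophil markers, where they had 3256 to 3889 CPM. The part of these markers in the member levels was not tested. Runx3, Cbfa2t2, Cbfa2t3 and Runx1t1 were not flagged in it.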

How the results depend on the processing

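The number of members called, of 7 tested, depended on the setting. The share or number of all genes that passed in the same setting stands in brackets. In bone marrow doxycycline against control it was 0 (6.57% of all genes), and 2 with DESeq2 (13.8%). It was 6 with only the groups compared (36.6%) or with both libraries that stand apart left out (29.5%), a setting chosen after seeing the data. With quality weights it was also 6 (2783 genes higher and 3208 lower of 14435). In spleen doxycycline against control it was 0 (0.741%), and 1 with DESeq2 (4.95%). It was also 1 at a mean count of at least 50 (97 genes higher and 32 lower) or with the replicate block (216 and 158). It was 2 with quality weights (583 and 666) or both libraries left out (501 and 550). For the average of the tissues it was 1 (10.1%), and 2 with DESeq2 (16.7%) or limma-voom (12.3%). It was also 2 at a mean count of at least 50 (890 genes higher and 555 lower), with the block (1425 and 1260) or only the groups compared (1391 and 851). It was 4 with quality weights (1916 and 2319) and 5 with both libraries left out (23.8%). For the difference between the tissues it was 0 (0.0485%), and 1 with quality weights (527 genes higher and 658 lower) or both left out (1306 and 1156). Between the controls it was 0 (0.187%), and 2 with DESeq2 (2.11%). It was 3 with only the groups compared (14.7%), quality weights (1228 genes higher and 1398 lower) or both left out (374 and 516). Between the doxycycline groups it was 0 (0.0485%), and 1 with DESeq2 (3.03%) or limma-voom (0.443%). It was also 1 at a mean count of at least 50, with the block or quality weights, and 3 with both left out (0 to 3654 genes). For secondary disease against spleen control it was 0 (2.03%), and 1 with only the groups compared (3.07%) or DESeq2 (5.24%). It was 4 with quality weights and 2 with both left out (134 to 4651 genes). Against spleen doxycycline it was 0 (0.928%), and 1 with both left out (0 to 1164 genes). A range in brackets instead gives the genes called over all settings but the fits with single libraries left out. It is too wide to set the member counts before it against a share, so these are not read as a result about the members.

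With single libraries left out the count was 0 to 0 in bone marrow, 0 to 2 in spleen, 1 to 3 for the average, 0 to 1 for the difference, 0 to 0 between controls, 0 to 2 between doxycycline groups, 0 to 0 for secondary disease against spleen control and 0 to 1 against spleen doxycycline. Secondary disease replicate 4 and spleen doxycycline replicates 1 and 2 were the libraries that moved it. In these fits the genes called over the whole table ranged from 23 to 2428 in bone marrow and 0 to 1364 in spleen. They ranged from 773 to 3117 for the average, 0 to 645 for the difference, 0 to 190 between controls and 1 to 1072 between doxycycline groups. In secondary disease they ranged from 61 to 523 against spleen control and 0 to 1336 against spleen doxycycline. For 37 of 56 pairs of member and comparison the log2 fold change was at least 0.2 in size. Their sign held in all settings but 4: Runx3 in spleen was −0.0765 with limma-voom, Runx2 between the doxycycline groups (−0.21) was 0.24 with both libraries left out and ran from −0.63 to 0.24 with single libraries left out, and Cbfb in secondary disease against spleen doxycycline ran from −0.0135 to 0.45. For the other 19 pairs, 63 of 334 runs had the other sign. The cause was not tested.

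Genes called over the whole table ranged, over all settings, from 23 to 5991 in bone marrow (main 949), 0 to 1364 in spleen (107), 773 to 4235 for the average (1459) and 0 to 2462 for the difference (7). They ranged from 0 to 2626 between controls (27), 0 to 3654 between doxycycline groups (7), 61 to 4651 for secondary disease against spleen control (293) and 0 to 1336 against spleen doxycycline (134). Replicate numbers did not pair the libraries: same-numbered libraries of bone marrow doxycycline and control deviated with r = −0.01, −0.15 and −0.27. Calls that differ under the block are therefore not read as weaker effects. Depth limits Myh11 (0 to 9 counts) and Runx3 in spleen doxycycline replicate 2 (23 counts).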
